A study of Homo sapiens with 12 samples.

Results

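Aminoacyl-tRNA synthetases, the enzymes that join each amino acid to its transfer RNA (tRNA), were followed in 2 cell lines derived from Ls174T colorectal carcinoma cells of human origin, in which Wnt signalling is constitutive. The members were 35 listed genes, 19 for cytosolic and 16 for mitochondrial enzymes. Of these, 32 (17 cytosolic and 15 mitochondrial) had a probe set annotated with that gene symbol alone, among 19775 genes with such a probe set, and all 32 passed the filter on dim genes. The other 3, MARS1, QARS1 and TARS2, were covered only by probe sets that carry several symbols and were not analysed here. A single probe set stood for each gene, chosen for the highest log2 signal averaged across arrays.

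RNA was hybridised to 12 Affymetrix U133 Plus 2.0 arrays in 4 groups of 3. In the Ls174T-pTER-β-catenin line, doxycycline starts production of an interfering hairpin (shRNA) that targets β-catenin, the coactivator of Wnt target genes, and its groups were untreated cells and cells induced for 72 h. In the Ls174T-L8 line, doxycycline switches on a dominant-negative Tcf4, which occupies Wnt target genes without activating them, and its groups were untreated cells and cells induced for 24 h. Construct, derivative and time differ together between the inductions and cannot be told apart, and doxycycline was given to every induced culture and to no control. The labels number the arrays but do not say whether they came from separate cultures, so p-values measure the spread between arrays, which may be technical. The number of arrays limits the precision.

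Each synthetase recognises its amino acid and its tRNAs, activates the amino acid with ATP and transfers it to the tRNA end, so the set decides the supply of charged tRNA for translation. The enzymes fall into structural classes I and II, which have unrelated catalytic folds. Mitochondria translate with tRNAs of their own and use a separate group of nuclear-encoded enzymes, except that GARS1 and KARS1 make both the cytosolic and the mitochondrial form from the same gene. Several cytosolic enzymes sit together in the multisynthetase complex. Many cytosolic synthetase genes are induced by ATF4, the transcription factor of the amino acid starvation response, and the transcription factor MYC, a Wnt target in colon, is known to raise genes of protein synthesis.

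Median signals per array, in arbitrary units on a linear scale, were between 12.1 and 15.3, and arrays of the same group had Pearson correlations of 0.968 to 0.976 across the 12386 genes tested. CTNNB1, the gene of β-catenin, fell by 4.61 on the log2 scale with the shRNA (brightest probe set), and the probe sets of TCF7L2, the gene of Tcf4, with the largest changes rose 11.6-fold and 7.55-fold with dominant-negative Tcf4. Of 10 colon epithelial markers all passed the filter, with EPCAM at a signal of 4199 to 4634 over the groups. Most other markers on that list moved. With the shRNA 7 were called higher (70%, beside 16.6% of all genes tested) and GPA33 lower (10%, beside 17.4%). With dominant-negative Tcf4 5 were called higher (50%, beside 16%). KRT20 rose 101-fold with the shRNA and 4.08-fold with dominant-negative Tcf4, where GPA33 rose 3.28-fold. Among markers of other cells 4 of 7 for fibroblasts, 1 of the 5 matched for leukocytes (CORO1A) and 1 of 5 for endothelium (PECAM1) passed the filter. PTPRC, which defines leukocytes, did not. Fibroblast markers called higher numbered 2 with the shRNA (LUM and ACTA2) and 1 with dominant-negative Tcf4 (LUM), while CORO1A changed by -1.31 ± 0.30 and by 0.80 ± 0.30. The part of these markers in the results was not tested.

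After 72 h of hairpin induction against β-catenin, limma called 11 of the 32 synthetases lower and 2 higher, together 40.6%, beside 34% of all genes tested. The changes were mostly modest: HARS1, the cytosolic histidyl-tRNA synthetase, lost 53.9% of its signal, and the next were YARS2, AARS2 and IARS1. Of 17 cytosolic enzymes 6 fell (HARS1, IARS1, TARS1, LARS1, AARS1 and GARS1) and none rose. Of 15 mitochondrial enzymes 5 fell (YARS2, AARS2, HARS2, LARS2 and EARS2) and 2 rose (WARS2 and IARS2). The share of members called lower was 34.4%, beside 17.4% of all genes tested, and the share called higher was 6.25%, beside 16.6%. A gene is called here at an adjusted p under 0.05 in limma's moderated test over all genes tested, changes are induced minus uninduced on the log2 scale ± standard error (n = 3 arrays per group), and in such bulk RNA fewer cells of a type and less RNA per cell cannot be told apart.

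HARS1 had signals of 580.5, 587 and 609.7 in uninduced and 280.5, 249.8 and 290.0 in induced cells. Every induced array was below every uninduced one, and the fall of 1.12 ± 0.09 (2.17-fold, adjusted p = 1.27e-07) kept between -1.17 and -1.05 under all alternatives run. IARS1, which charges tRNA with isoleucine and belongs to the multisynthetase complex, went from 2363, 2561 and 2514 to 1662, 1729 and 1554. Its groups did not overlap either, and it fell by 0.59 ± 0.07 (adjusted p = 5.48e-06). TARS1, the threonyl enzyme, had 1599.9, 1867 and 1814 before and 1412.5, 1281 and 1259 after induction and fell by 0.42 ± 0.08 (adjusted p = 7.86e-04), a call lost when all probe sets of the gene were averaged (-0.52). The other TARS1 probe set was below the filter, with signals of 12.8 or less, so the average takes in a dim and noisy probe set.

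Among the remaining cytosolic enzymes, AARS1, which charges tRNA with alanine, had 2019, 2057 and 1820.0 uninduced and 1434, 1516 and 1504.5 induced. LARS1, the leucyl enzyme that also takes part in amino acid sensing, had 715, 835 and 859 against 607, 669.8 and 536. Both were separated without overlap and fell by 0.40 ± 0.10 and by 0.41 ± 0.11. GARS1, the glycyl enzyme of cytosol and mitochondria, fell by 0.26 ± 0.08 (adjusted p = 0.0185) from 2284, 2232 and 2162 to 1918, 1668 and 1987. That call was lost without uninduced replicate 1 (-0.25) or 2 (-0.26), without induced replicate 2 (-0.19), and without a variance trend (-0.26). The other 11 cytosolic enzymes did not pass, with changes from -0.16 for FARSB, CARS1 and YARS1 to 0.27 ± 0.11 for RARS1, the arginyl enzyme, which passed without induced replicate 1 (0.39). FARSB passed without induced replicate 2 (-0.27), and KARS1, the lysyl enzyme, had 0.01 ± 0.07.

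YARS2, the mitochondrial tyrosyl-tRNA synthetase, had signals of 505, 293 and 280.4 uninduced and 164, 191.5 and 239 induced. Uninduced replicate 1 stood above the other uninduced arrays, and the fall of 0.82 ± 0.20 (adjusted p = 0.00382) was -0.55 and still called without it. AARS2, the mitochondrial alanyl enzyme, went from 79.1, 66.0 and 85.4 to 36.0, 60.4 and 55.1, a fall of 0.63 ± 0.21 (adjusted p = 0.0287). HARS2, the mitochondrial partner of HARS1, went from 278, 257 and 315 to 236, 193 and 210.1, a fall of 0.41 ± 0.13 (adjusted p = 0.0193). Induced values lay below uninduced values without overlap in these 3 genes and in LARS2 and EARS2, the leucyl and glutamyl enzymes, which fell by 0.40 ± 0.14 and by 0.33 ± 0.12.

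WARS2, the mitochondrial tryptophanyl enzyme, moved the other way, from 159.7, 167 and 161 to 235, 198 and 240.0, a rise of 0.46 ± 0.13 (adjusted p = 0.00884). IARS2, the mitochondrial isoleucyl enzyme, rose by 0.29 ± 0.08 (adjusted p = 0.00881), from 1245, 1205.5 and 1309 to 1594, 1417 and 1591. In both, all induced arrays were above all uninduced ones. PARS2 and RARS2, the prolyl and arginyl enzymes, were also above without overlap, but their changes of 0.19 ± 0.15 and 0.26 ± 0.13 did not pass.

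Calls of the mitochondrial group were less firm than that of YARS2. AARS2 lost its call without uninduced replicate 1 (-0.61) or 3 (-0.55), without induced replicate 1 (-0.41), with no filter and with only the arrays of this line fitted (-0.63 in both). HARS2 lost its call without uninduced replicate 3 (-0.33) or induced replicate 2 (-0.34) or 3 (-0.40). EARS2, with an adjusted p of 0.043, lost its call when any of the 6 arrays was left out (-0.35 to -0.30), and LARS2 when any uninduced array (-0.43 to -0.39) or induced replicate 1 (-0.29) or 3 (-0.37) was. WARS2 lost its call with all probe sets averaged (0.15) or with _s_at and _x_at probe sets left out (0.27), and IARS2 with arrays centred on their medians (0.24). Without uninduced replicate 1 the members called lower numbered 7 in place of 11.

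**Figure D1:**
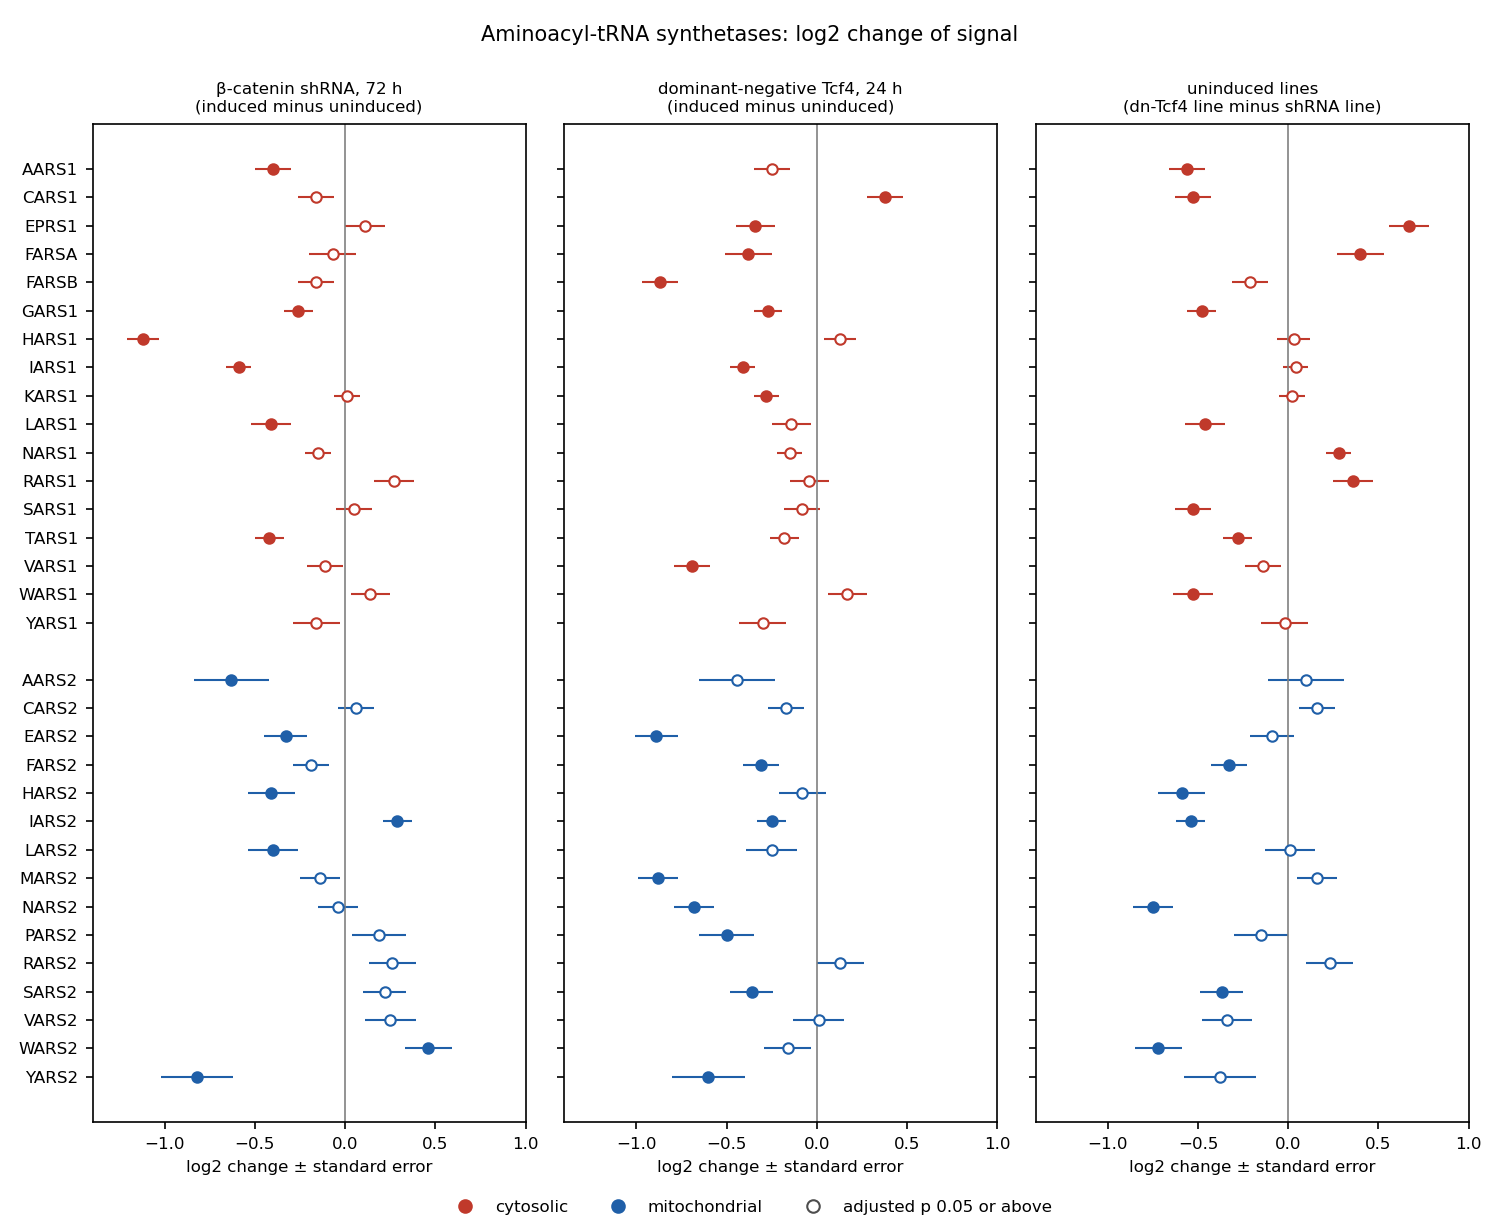
Log2 change ± standard error (x axis, n = 3 arrays per group) of each of the 32 synthetases, cytosolic in red and mitochondrial in blue, for the shRNA, for dominant-negative Tcf4 and between the uninduced lines; filled points have an adjusted p under 0.05. HARS1 at -1.12 is the lowest point of the shRNA panel, and EARS2 at -0.89, MARS2 at -0.88 and FARSB at -0.87 are the lowest of the dominant-negative Tcf4 panel.

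Dominant-negative Tcf4 for 24 h lowered 15 of the 32 synthetases and raised 1, CARS1, together 50% of them, beside 36% of all genes tested. The lowest were mitochondrial EARS2 and MARS2, the glutamyl and methionyl enzymes, and cytosolic FARSB, the beta subunit of the phenylalanyl enzyme, which fell by 46.0%, by 45.8% and by 45.2%. Of 17 cytosolic enzymes 7 fell (FARSB, VARS1, IARS1, FARSA, EPRS1, KARS1 and GARS1). Of 15 mitochondrial enzymes 8 fell (EARS2, MARS2, NARS2, YARS2, PARS2, SARS2, FARS2 and IARS2) and none rose. Members called lower made up 46.9%, beside 20% of all genes tested, and the single member called higher 3.12%, beside 16%. The median change was -0.25 for cytosolic and -0.31 for mitochondrial enzymes, beside -0.05 for all genes tested.

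EARS2 had signals of 188, 192 and 175.5 uninduced and 89.6, 98.4 and 113 induced, a fall of 0.89 ± 0.12 (adjusted p = 2.20e-05). MARS2 had 327, 279 and 273 uninduced and 149.8, 161 and 165 induced, a fall of 0.88 ± 0.11 (adjusted p = 9.25e-06). FARSB had 863, 862 and 854 uninduced and 478, 509.9 and 429 induced, a fall of 0.87 ± 0.10 (adjusted p = 6.08e-06). In each of these genes the induced arrays lay far below the uninduced ones, with gaps wider than the spread within either group. FARSA, the alpha subunit that pairs with FARSB, fell less, by 0.38 ± 0.13 (adjusted p = 0.0309), from 326, 257 and 294.5 to 235, 250.4 and 192.

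VARS1, the valyl enzyme, went from 947, 1048 and 1105 to 567, 702.5 and 653.5 and fell by 0.69 ± 0.10 (adjusted p = 5.91e-05). NARS2, the mitochondrial asparaginyl enzyme, went from 221.5, 216 and 277.5 to 155, 141 and 147 and fell by 0.68 ± 0.11 (adjusted p = 1.49e-04). IARS1 went from 2524.5, 2594.5 and 2508 to 1924.5, 1957 and 1846 and fell by 0.41 ± 0.07 (adjusted p = 1.85e-04). These 3 and EARS2 and MARS2 kept their calls under all alternatives run. VARS1 and IARS1 have only _s_at probe sets, so leaving out such probe sets could not test them. Other complex members moved less: KARS1 fell by 0.28 ± 0.07 and EPRS1, the glutamyl-prolyl enzyme, by 0.34 ± 0.11. GARS1 fell by 0.27 ± 0.08.

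In the mitochondrial group YARS2 fell by 0.60 ± 0.20 (adjusted p = 0.0246), PARS2 by 0.50 ± 0.15, SARS2, the seryl enzyme, by 0.36 ± 0.12, FARS2, the phenylalanyl enzyme, by 0.31 ± 0.10, and IARS2 fell by 0.25 ± 0.08. All 15 falls separated the 3 induced from the 3 uninduced arrays without overlap. Of the 32 members 17 were lower and 3 higher without overlap in this line, beside 26% and 21.1% of all genes tested. With the shRNA 12 were lower and 4 higher without overlap, beside 22.2% and 22.4%. CARS1, the cysteinyl enzyme, rose by 0.38 ± 0.10 (adjusted p = 0.00944), from 985, 1059 and 956 to 1248, 1516 and 1155. HARS1, lowered by the shRNA, had 609, 612 and 596 uninduced and 623, 732 and 639.5 induced, higher on each induced array but by only 0.13 ± 0.09 (adjusted p = 0.314), which did not pass.

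Several of the smaller calls were lost when a single array was left out, often with a change near that of the full fit. Fewer arrays also lower the precision. Without uninduced replicate 2 the members called lower numbered 9 in place of 15, and with arrays centred on their medians 8. CARS1 did not pass without induced replicate 2 (0.27), with median centring (0.37) or with all probe sets averaged (0.39). FARSB lost its call only with all probe sets averaged (-0.84), and KARS1 only with median centring (-0.29). The FARSB average takes in dim probe sets below the filter, with signals of 16.7 or less. Leaving out an uninduced array ended the calls of EPRS1 (replicates 1, 2 and 3; -0.35, -0.32 and -0.35), FARSA (1 and 3; -0.29 and -0.37), GARS1 (2; -0.22), YARS2 (2 and 3; -0.51 and -0.61), PARS2 (1; -0.34), SARS2 (2 and 3; -0.32 each), FARS2 (1 and 2; -0.26 and -0.30) and IARS2 (1 and 2; -0.25 and -0.23). Leaving out an induced array ended those of EPRS1 (3; -0.21), FARSA (3; -0.26), GARS1 (1; -0.25), YARS2 (1 and 3; -0.57 and -0.53), PARS2 (3; -0.44), SARS2 (2 and 3; -0.36 and -0.32), FARS2 (1; -0.28) and IARS2 (2; -0.22).

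**Figure D2:**
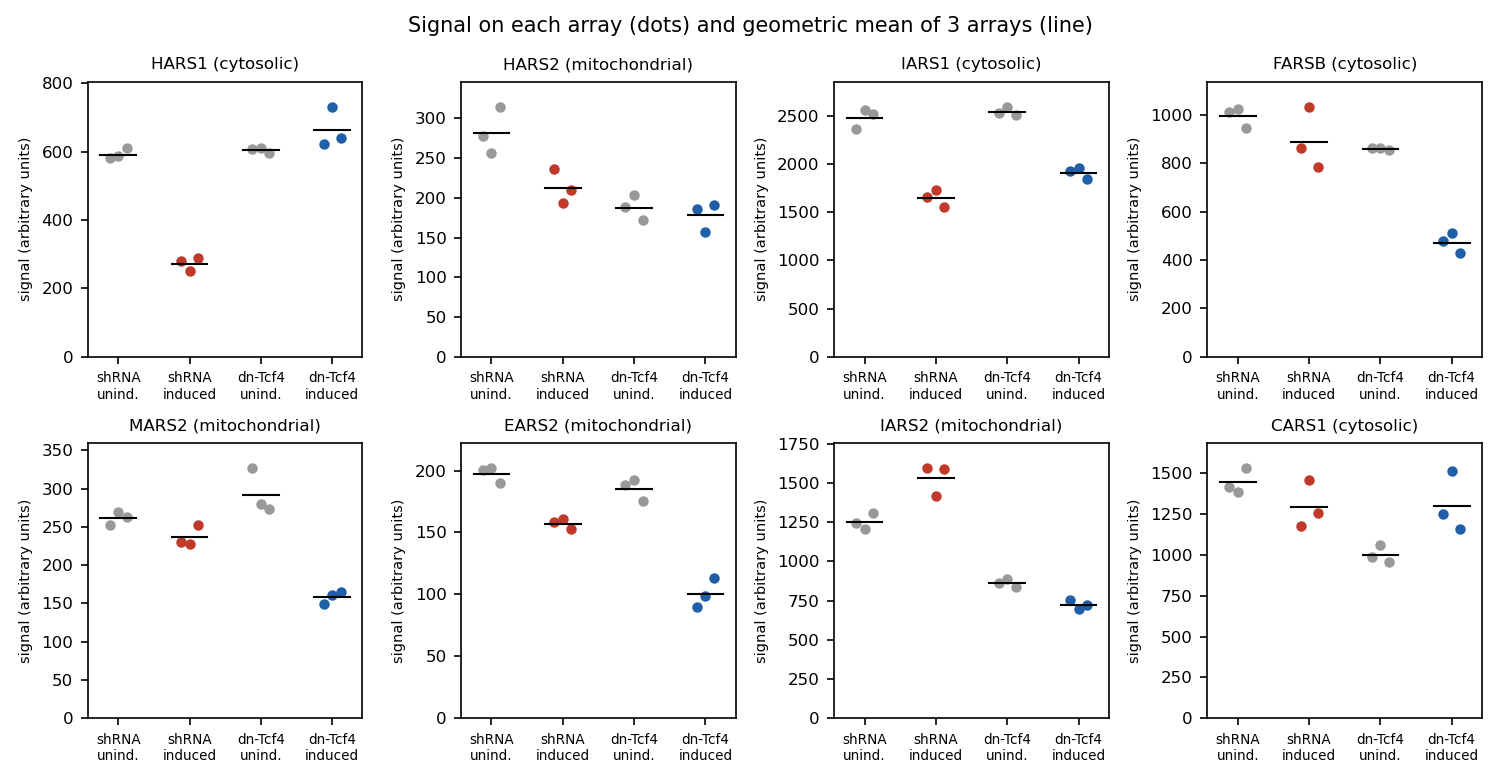
Signal in arbitrary units (linear y axis from 0) of 8 synthetases on each of the 12 arrays, with 3 dots per group and a line at the geometric mean. HARS1 lies at 249.8 to 290.0 on the induced shRNA arrays and at or above 580.5 on all other arrays, whereas MARS2, EARS2 and FARSB are lowest on the induced dominant-negative Tcf4 arrays.

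Cytosolic and mitochondrial enzymes were next set side by side over both inductions. With the shRNA the median change was -0.16 for cytosolic and -0.04 for mitochondrial enzymes, beside 0.02 for all genes tested. The ranges overlapped widely, from -1.12 to 0.27 and from -0.82 to 0.46. Only 4 members fell in both lines: GARS1 and IARS1 among the cytosolic and EARS2 and YARS2 among the mitochondrial enzymes. This is 12.5% of the members, beside 9.68% of all genes tested, and no member rose in both, beside 8.4%. IARS2 rose with the shRNA and fell with dominant-negative Tcf4, and 1.55% of all genes tested were called in opposite directions. With neither induction did NARS1, RARS1, SARS1, WARS1, YARS1, CARS2, RARS2 and VARS2 pass. Some members gained a call under an alternative. With dominant-negative Tcf4 YARS1 passed with quantile normalization (-0.31), a replicate block or only the arrays compared (-0.30 in both) and without induced replicate 2 (-0.42), and NARS1 passed without induced replicate 2 (-0.21). AARS1 passed there with quantile normalization (-0.28), a replicate block (-0.25) and without uninduced replicate 1 or induced replicate 2 (-0.36 each), and WARS2 without _x_at and _s_at probe sets (-0.67). With the shRNA NARS1 passed with quantile normalization (-0.19) and FARS2 without uninduced replicate 3 (-0.29), beside RARS1 and FARSB above.

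The test of the difference between the changes (shRNA minus dominant-negative Tcf4) was passed by 11 members, 34.4%, beside 17.6% of all genes tested. HARS1 and CARS1, 6.25% of the members beside 8.61% of all genes, were relatively lower with the shRNA, at -1.25 ± 0.13 (adjusted p = 8.81e-06) and -0.54 ± 0.15 (adjusted p = 0.0186). The other 9, 28.1% of the members beside 9.03% of all genes, were relatively lower with dominant-negative Tcf4. Of these, 2 were cytosolic, FARSB (0.70 ± 0.14) and VARS1 (0.58 ± 0.14), and 7 were mitochondrial. MARS2 differed by 0.74 ± 0.15 (adjusted p = 0.00308), PARS2 by 0.69 ± 0.21, NARS2 by 0.64 ± 0.16, WARS2 by 0.62 ± 0.18, SARS2 by 0.58 ± 0.17, EARS2 by 0.56 ± 0.17 and IARS2 by 0.54 ± 0.11 (adjusted p = 0.00313). The median difference was 0.24 for mitochondrial and 0.00 for cytosolic enzymes, beside 0.04 for all genes tested.

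The differences of HARS1, IARS2, MARS2 and NARS2 passed under all alternatives run, while those of the other 7 were lost under at least 1. Median centring left 4 members relatively lower with dominant-negative Tcf4 and 1 relatively lower with the shRNA. CARS1 was lost without shRNA induced replicate 1 (-0.47) or with median centring (-0.58), averaged probe sets (-0.68) or no variance trend (-0.54). FARSB was lost with all probe sets averaged (0.55), and VARS1 with averaged probe sets (0.27) or median centring (0.54). EARS2, PARS2, SARS2 and WARS2 were lost when any of several arrays was left out, at 0.48 to 0.58, 0.53 to 0.72, 0.51 to 0.57 and 0.57 to 0.60. For EARS2 these were shRNA uninduced replicate 2, shRNA induced replicates 1 and 2, and dominant-negative Tcf4 uninduced and induced replicates 1 and 2. For PARS2 they were shRNA uninduced replicates 1 and 2, shRNA induced replicates 1 and 3, and dominant-negative Tcf4 uninduced replicate 1 and induced replicate 3. For SARS2 they were shRNA uninduced replicates 1 and 3, shRNA induced replicate 2, and dominant-negative Tcf4 uninduced replicates 2 and 3 and induced replicate 3. For WARS2 they were shRNA induced replicates 1 and 3 and dominant-negative Tcf4 uninduced replicates 2 and 3. The difference of EARS2 was also lost with averaged probe sets (0.33), without _x_at and _s_at probe sets (0.44), with median centring (0.52) and with a replicate block (0.56). Median centring likewise ended those of PARS2 (0.65), SARS2 (0.54) and WARS2 (0.58). That of PARS2 was lost with no filter (0.69) and that of WARS2 with averaged probe sets (0.75).

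HARS1 and HARS2 lie head to head on chromosome 5. By RefSeq (GRCh38.p14) their first transcribed bases are at 140691370 on the minus strand and 140691455 on the plus strand, with 84 bases between them. That stretch is shown, on the strand of HARS2, because both genes start from it and their changes differ in size. Capitals mark the letters CCGGAAGT, the core of ETS factor sites, on either strand.
HARS1-HARS2, chr5:140691371-140691454: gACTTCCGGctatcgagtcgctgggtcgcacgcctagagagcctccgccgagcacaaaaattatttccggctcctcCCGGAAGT
The letters are found 2 times, near the start of each gene. With the shRNA HARS1 changed by -1.12 ± 0.09 and HARS2 by -0.41 ± 0.13, and under dominant-negative Tcf4 by 0.13 ± 0.09 and -0.08 ± 0.13. The difference between the neighbours was not tested, nor was cross-hybridisation between these related sequences.

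By structural class, 5 of 17 class I enzymes fell and 2 rose with the shRNA (median -0.11), and 6 of 15 class II enzymes fell and none rose (median -0.16). With dominant-negative Tcf4, 7 of 17 class I enzymes fell and 1 rose (median -0.25), and 8 of 15 class II enzymes fell (median -0.28). Class I and II were thus called lower in 29.4% and 40% with the shRNA, beside 17.4% of all genes tested, and in 41.2% and 53.3% with dominant-negative Tcf4, beside 20%. The class I calls that were higher made up 11.8% and 5.88%, beside 16.6% and 16%. Of the 5 measured enzymes of the multisynthetase complex, IARS1 and LARS1 fell with the shRNA, and IARS1, KARS1 and EPRS1 fell with dominant-negative Tcf4, 40% and 60%, beside the same 17.4% and 20%. AIMP1, the scaffold of that complex with a usable probe set, had changes of 0.21 ± 0.11 and -0.17 ± 0.11, neither of which passed. Among 11 measured cytosolic synthetases known as ATF4 targets, 5 fell with the shRNA (AARS1, GARS1, IARS1, LARS1 and TARS1), and 3 fell and CARS1 rose with dominant-negative Tcf4. These are 45.5% lower with the shRNA, beside 17.4% of all genes tested, and 27.3% lower and 9.09% higher with dominant-negative Tcf4, beside 20% and 16%.

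Promoter windows of 250 bases before to 50 bases after an annotated start (RefSeq, GRCh38.p14) were found for 27 of the 32 members and searched on both strands. This start is not always the outer end of the gene, and for CARS2, TARS1 and GARS1 it lies inside the gene. TGATGNAA, the letters of the composite site through which ATF4 acts with C/EBP factors, was in 7 of the windows, 25.9%, beside 4.46% of 27305 genes with a window. The 30 bases around each match are shown on the strand of the gene, with the match in capitals (in reverse complement where it lies on the other strand). They are shown because 5 of these 7 genes (IARS1, TARS1, AARS1, GARS1 and YARS2) fell with the shRNA. Of all 32 members 34.4% were called lower with it, beside 17.4% of all genes tested. With dominant-negative Tcf4 IARS1, GARS1 and YARS2 fell, CARS1 rose, and TARS1, AARS1 and NARS1 did not pass.
IARS1, chr9:92293692-92293721, minus strand: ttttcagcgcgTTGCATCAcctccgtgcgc
TARS1, chr5:33440956-33440985, plus strand: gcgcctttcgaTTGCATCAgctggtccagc
AARS1, chr16:70289675-70289704, minus strand: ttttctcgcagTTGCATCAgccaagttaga
GARS1, chr7:30594834-30594863, plus strand: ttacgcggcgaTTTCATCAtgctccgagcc
YARS2, chr12:32756076-32756105, minus strand: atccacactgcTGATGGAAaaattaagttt
CARS1, chr11:3057407-3057436, minus strand: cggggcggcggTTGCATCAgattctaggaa
NARS1, chr18:57621804-57621833, minus strand: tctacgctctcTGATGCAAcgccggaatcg
The 6 cytosolic enzymes shown are known ATF4 targets, and YARS2 is mitochondrial. CARS1 and NARS1 hold the letters and did not pass with the shRNA (-0.16 and -0.15), while HARS1, HARS2, LARS2 and EARS2 fell with it and do not hold them in their windows. LARS1 and AARS2, which also fell, are not among the 7 genes with the letters. Windows were found for only 27 of the 32 members, so these 2 genes may not have been searched.

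CACGTG, the E-box bound by MYC with MAX, was in 4 of the 27 windows, 14.8%, beside 8.77% of all genes. These are shown because 3 of the 4 genes (EARS2, MARS2 and IARS1) fell with dominant-negative Tcf4, with CARS2 at -0.17 ± 0.10 not passing. Of all 32 members 46.9% were called lower there, beside 20% of all genes tested. GARS1, IARS2, PARS2, SARS2 and YARS2 also fell there and do not hold these letters in their windows. FARSB, VARS1, NARS2, FARS2, FARSA, EPRS1 and KARS1 fell there too and are not among the 4 genes with the letters. Windows were found for only 27 of the 32 members, so some of these may not have been searched.
EARS2, chr16:23557348-23557377, minus strand: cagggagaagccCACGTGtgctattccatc
MARS2, chr2:197705346-197705375, plus strand: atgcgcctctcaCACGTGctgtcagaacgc
IARS1, chr9:92293866-92293895, minus strand: tggttcgttttcCACGTGgaggcgcaaaac
CARS2, chr13:110706501-110706530, minus strand: tgctgggatgcaCACGTGcttcgctaacag
MYC itself fell by 0.99 ± 0.09 in each line. With the shRNA EARS2 (-0.33) and IARS1 (-0.59) were called lower, while MARS2 (-0.14) and CARS2 (0.06) did not pass. Whether MYC acts on these genes was not tested. Among the other letters searched, CCGGAAGT was in 8 windows (29.6%, beside 4.95%), CCAAT, the core of NF-Y sites, in 14 (51.9%, beside 39.7%), and CTTTGA, the core of TCF sites, in 1, that of GARS1 (3.7%, beside 15.5%). The longer CTTTGAT and the ZNF143 element, in 3.18% and 1.04% of all genes, were in none. CTTTGAT contains CTTTGA, so their counts are not separate. These matches describe letters in a window and not bound sites.

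Before induction the lines differed in 17 of the 32 synthetases, 53.1%, beside 37.3% of all genes tested. The dominant-negative Tcf4 line was lower in 13 (7 cytosolic and 6 mitochondrial), 40.6% beside 20.5%, and higher in 4 cytosolic enzymes, 12.5% beside 16.9%. NARS2 had a difference of -0.75 ± 0.11 on the log2 scale, with 376, 407.5 and 411 in the shRNA line against 221.5, 216 and 277.5. WARS2 was at 159.7, 167 and 161 against 90.4, 102 and 104, a difference of -0.72 ± 0.13, and HARS2 had a difference of -0.59 ± 0.13. EPRS1 was higher, at 399, 426 and 450.2 in the shRNA line against 664, 693.5 and 663, by 0.67 ± 0.11 (adjusted p = 1.94e-04). These groups are also the controls of the inductions, so the values are not separate from those above.

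In the cytosolic group AARS1 (-0.56), CARS1, SARS1 and WARS1 (-0.53 each), GARS1 (-0.48), LARS1 (-0.46) and TARS1 (-0.28) were lower in the uninduced dominant-negative Tcf4 line. FARSA (0.40), RARS1 (0.36) and NARS1 (0.28) were higher together with EPRS1. The lower mitochondrial enzymes beside NARS2, WARS2 and HARS2 were IARS2 (-0.54), SARS2 (-0.37) and FARS2 (-0.33). HARS1, IARS1, KARS1 and YARS1 had differences between -0.02 and 0.04, none of which passed. Among the 11 measured ATF4 targets 7 were lower and 2 higher (median -0.46), and ATF4 itself differed by -0.97 ± 0.08 (adjusted p = 4.63e-08). Between these groups median centring moved the median of all genes from -0.03 to 0.09 and the share of calls that were higher from 45.2% to 59.3%, and with it 9 members were called lower and 4 higher.

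The calls of AARS1, EPRS1, GARS1, HARS2, IARS2, NARS1, NARS2, SARS1 and WARS1 between the uninduced lines held under all alternatives run. EPRS1 and GARS1 have only _s_at probe sets and could not be tested without them. Median centring ended those of FARS2 (-0.22), LARS1 (-0.34), SARS2 (-0.26) and TARS1 (-0.16), and averaging the probe sets those of CARS1 (-0.15), WARS2 (-0.18), FARS2 (-0.44), FARSA (0.39) and TARS1 (-0.98). FARSA was also lost with _x_at and _s_at probe sets left out (0.38), and RARS1 with no variance trend (0.36). Leaving out an array of the shRNA line ended the calls of FARS2 (replicates 1 and 2; -0.27 and -0.30), FARSA (1 and 3; 0.39 and 0.36), RARS1 (3; 0.25), SARS2 (2; -0.31) and TARS1 (2; -0.23). Leaving out an array of the dominant-negative Tcf4 line ended those of FARS2 (3; -0.27), FARSA (1 and 3; 0.31 and 0.39), RARS1 (2 and 3; 0.36 and 0.32), SARS2 (1; -0.29) and TARS1 (1; -0.24).

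Genes that work with the synthetases were read from lists. Of 26 measured genes of tRNA maturation and export, none rose, while dominant-negative Tcf4 lowered 21 and the shRNA 6 (medians -0.50 and -0.22). The falls were 80.8% of the list with dominant-negative Tcf4, beside 20% of all genes tested, and 23.1% with the shRNA, beside 17.4%. With the shRNA TRMT5, a tRNA methyltransferase, fell by 1.32, XPOT, the exportin of tRNA, by 1.24, TSEN54, of the splicing endonuclease, by 0.82, and RPP30, of ribonuclease P, fell by 0.67. With dominant-negative Tcf4 the methyltransferase TRMT1 fell by 1.17, the pseudouridine synthase PUS7 by 1.09, the thiolation factor CTU2 by 0.87 and the methyltransferase subunit TRMT6 fell by 0.84. The difference of changes was called for 9 of the 26, 7 relatively lower with dominant-negative Tcf4 and 2 with the shRNA, 26.9% and 7.69%, beside 9.03% and 8.61% of all genes tested. TRMT1 (1.35, adjusted p = 6.12e-05), PUS7 (1.27, adjusted p = 4.11e-04) and TRMT6 (0.68, adjusted p = 0.00418) were among the 7, and TRMT5 (-1.08, adjusted p = 1.13e-06) and XPOT (-0.61, adjusted p = 0.00662) were the 2.

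Of 15 mitochondrial translation factors none rose, while dominant-negative Tcf4 lowered 9 and the shRNA 4 (medians -0.42 and -0.09). The falls were 60% of the list with dominant-negative Tcf4, beside 20% of all genes tested, and 26.7% with the shRNA, beside 17.4%. With the shRNA and dominant-negative Tcf4 in turn, TRMU, which modifies mitochondrial tRNAs, fell by 0.89 and by 1.04, TSFM, an elongation factor, fell by 0.32 and, with dominant-negative Tcf4, from a geometric mean signal of 597 to 299, and TRMT10C, of mitochondrial ribonuclease P, fell by 0.35 and by 0.79. GTPBP3, another modifier, fell by 0.43 with the shRNA, and MRM1, a ribosomal RNA methyltransferase, fell by 0.96 with dominant-negative Tcf4. Of 7 genes of cytosolic elongation dominant-negative Tcf4 lowered 3 and the shRNA 1, 42.9% and 14.3%, beside 20% and 17.4% of all genes tested. EEF2K, the kinase of elongation factor EEF2, fell by 0.93 with the shRNA. DPH2 and DPH5, which build diphthamide on EEF2, fell by 1.25 and by 0.67 and EEF1D fell by 0.36 with dominant-negative Tcf4. In the list of aminoacyl-tRNA editing and modification, with 9 measured, 11.1% fell and 11.1% rose with the shRNA, beside 17.4% and 16.6%, and 22.2% fell with dominant-negative Tcf4, beside 20%. In it DTD1, a proofreading deacylase, fell by 0.46 and by 0.29, PSTK, a kinase of the selenocysteine route, fell by 0.64 with dominant-negative Tcf4, and PTRHD1 rose by 0.63 with the shRNA.

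ATF4 response genes other than the synthetases counted 12 of 25 lower with each induction, 2 higher with the shRNA and 4 higher with dominant-negative Tcf4 (medians -0.35 and -0.24). The lower share was 48% with each, beside 17.4% and 20% of all genes tested, and the higher share 8% and 16%, beside 16.6% and 16%. SLC7A5 and SLC3A2, the subunits of a transporter of large neutral amino acids, fell by 1.34 and by 1.25 with the shRNA. With dominant-negative Tcf4 SLC7A5 had a change of -1.86 and SLC3A2 of -1.22, both called. ASNS and PHGDH, enzymes of asparagine and serine synthesis, fell by 1.08 and by 0.98 with the shRNA. With dominant-negative Tcf4 STC2 fell by 0.96 and DDIT4, an inhibitor of mTORC1, rose by 2.14. ATF4 itself fell by 0.35 ± 0.08 with the shRNA and had a change of -0.11 ± 0.08 with dominant-negative Tcf4 that did not pass.

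Of 14 interferon-gamma response genes 6 rose and 1 (UBE2L6, -0.30) fell with the shRNA, and 8 rose with dominant-negative Tcf4. The shares that rose were 42.9% and 57.1%, beside 16.6% and 16% of all genes tested. IRF9 rose by 1.78 and 1.43, PSMB9 by 0.45 and 1.20, and PSMB8 by 0.43 and 0.55, and B2M rose by 0.54 with the shRNA, and IRF1 by 1.19 with dominant-negative Tcf4. WARS1, the synthetase that interferon-gamma induces, did not pass in either line. Its changes were 0.14 ± 0.11 and 0.17 ± 0.11, from 706, 628 and 667 to 677, 769 and 757 with the shRNA and from 458, 467 and 461 to 471.5, 626 and 474 with dominant-negative Tcf4.

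**Figure D3:**
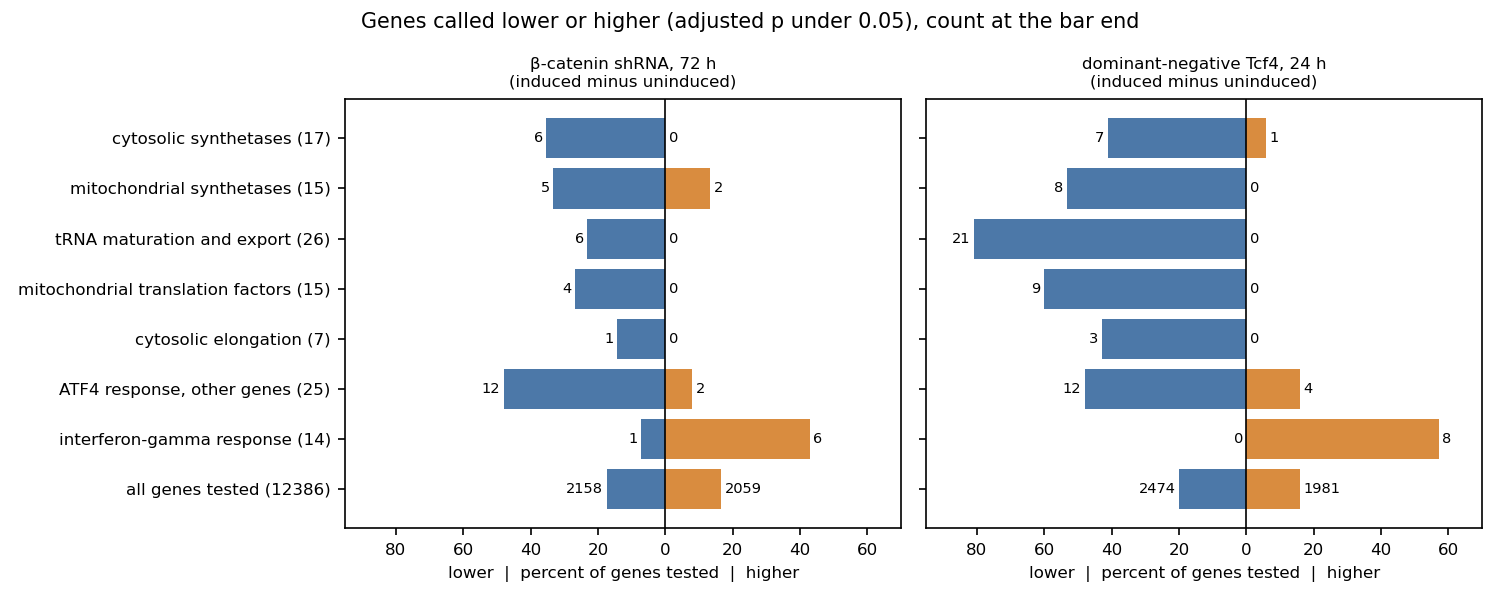
Percent of the genes tested in each list (number tested in parentheses) called lower (left, blue) or higher (right, orange) with each induction, with the count at each bar end. With dominant-negative Tcf4 the blue bars of both synthetase classes (7 of 17 and 8 of 15) and of tRNA maturation and export (21 of 26) reach past that of all genes tested (20%).

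Where a gene had several probe sets above the filter, they were compared in a fit over all probe sets except controls, and selected genes are given. For EARS2 the 3 brightest probe sets changed by -0.89, -0.88 and -0.88 with dominant-negative Tcf4, and for KARS1 both fell (by 0.28 and by 0.49). With the shRNA the same 3 EARS2 probe sets, brightest first, changed by -0.33, -0.44 and -0.64. The dimmer 2 passed in this limma fit (adjusted p = 0.0289 and 0.00453) and the brightest did not. Their differences of changes were 0.56, 0.44 and 0.24, and none passed, so the size of the EARS2 difference depends on the probe set. In that larger fit, an alternative chosen after seeing the data, 9 of the 13 shRNA calls and 9 of the 16 dominant-negative Tcf4 calls of the brightest probe sets were kept and none was gained. With the shRNA GARS1, LARS2, AARS2 and EARS2 were lost (adjusted p from 0.056 to 0.0937). With dominant-negative Tcf4 GARS1, EPRS1, IARS2, YARS2, FARS2, SARS2 and FARSA were lost (0.051 to 0.0678), and for the difference CARS1, WARS2, SARS2, EARS2 and PARS2 (0.0505 to 0.0788). Between the uninduced lines RARS1 was lost (0.0513). The 3 CARS1 probe sets all had positive changes with dominant-negative Tcf4 (0.38, 0.28 and 0.35) and negative ones with the shRNA (-0.16, -0.38 and -0.43). The 4 LARS1 probe sets had changes from -0.57 to -0.35 with the shRNA, of which 2 passed. For VARS1 the brighter probe set had -0.69 with dominant-negative Tcf4 and a difference of changes of 0.58, and both passed. The dimmer one had -0.27 ± 0.21 and -0.03 ± 0.30, and neither passed. The fall and the difference of VARS1 thus rest on the brighter probe set.

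SARS1, the cytosolic seryl enzyme, gave different readings. Its brighter probe set had 1897, 1842 and 1652 uninduced and 1834, 1946 and 1801 induced with the shRNA, a change of 0.05 ± 0.10. Its dimmer one had 223, 214 and 218 uninduced and 115, 96.6 and 64.4 induced, a fall of 1.29 ± 0.18 (adjusted p = 8.84e-05), so SARS1 has no settled change with the shRNA. WARS2 differed too: with dominant-negative Tcf4 the dimmer probe set fell by 0.67 ± 0.15 (adjusted p = 0.00492), while the brighter one had -0.16 ± 0.12. With the shRNA the brighter and dimmer probe sets of AARS2 had -0.63 ± 0.21 and -0.27 ± 0.20. Those of FARS2 had -0.19 ± 0.10 and 0.24 ± 0.13, and none of these passed in this fit. Signs were alike for LARS2 with the shRNA (-0.40 and -0.28) and for FARSA with dominant-negative Tcf4 (-0.38 and -0.60). Which transcripts each probe set detects was not tested.

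**Figure D4:**
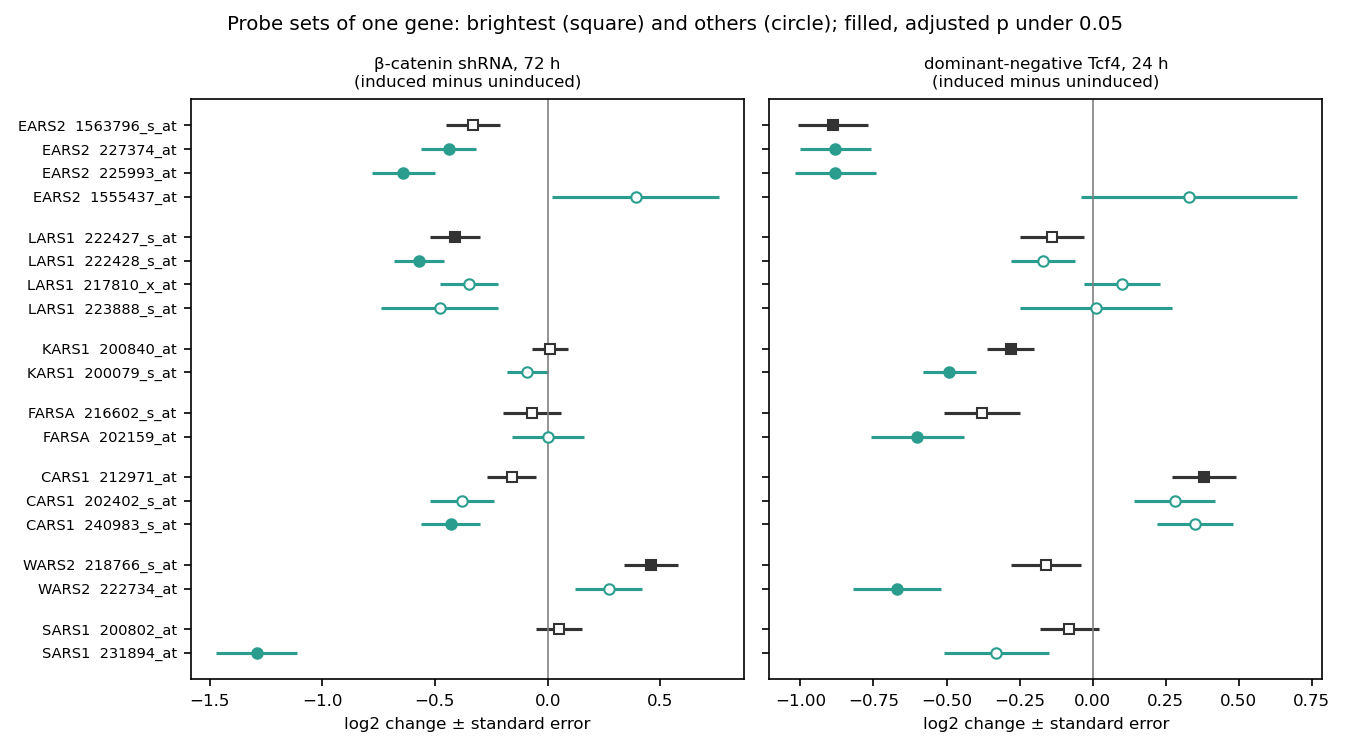
Log2 change ± standard error (x axis, n = 3 arrays per group) of each probe set above the filter for 7 synthetases, the brightest as a square and the others as circles, filled where the adjusted p is under 0.05. The probe sets of SARS1 lie apart with the shRNA (0.05 and -1.29), and the 3 brightest of EARS2 lie together with dominant-negative Tcf4.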

How the data were processed

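Signals of 12 arrays in 4 groups of 3 were used. Per the labels the submitters' processing notes name MAS5 and GCOS, versions not given in the sources used here. The values deposited by the authors are intensities (signals) on a linear scale, 1 per probe set, without detection calls. A mean of 100.0 over the central 96% of the 54675 probe sets, found on each array, comes from scaling done before the data were deposited. MAS5 signals of dim probe sets are noisy, so their log2 values spread widely. No genome build of the array annotation is given in the sources used here, and coordinates are those of RefSeq on GRCh38.p14.

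A floor of 1 was applied to signals, followed by log2. Of all probe sets 41091 carried 1 gene symbol and were not controls, 1801 carried several and 11783 were unnamed here or controls. The brightest probe set stood for each of 19775 genes, and the 12386 genes with a mean log2 of at least 3.35 (a signal of 10.2, the median over all probe sets) were tested. Group means were fitted over all 12 arrays with limma 3.58.1 in R 4.3.3, using moderated variances that follow a trend on the mean, 8 residual and 8.05 prior degrees of freedom. P-values are two-sided and Benjamini-Hochberg adjusted over the genes tested in each of 4 contrasts, and lists are described by counts and medians only.

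The members, lists, named genes and tests were chosen with earlier results of these data known, and the promoter motifs after the members' values were seen. The rule named every measured member, and up to 4 called genes per related list and induction. No shared effect of the replicate number was seen: deviations of same-numbered arrays from their group means had correlations between -0.08 and 0.04. How the arrays were prepared cannot be read from these values. Simulated data in which 200 genes were shifted served to check the script. Figures were drawn with matplotlib 3.10.9. Alternatives were quantile normalization, median centring, adding 3.5 to every signal first, no filter, a filter at the 75th percentile (6.29), averaged probe sets, no _x_at or _s_at probe sets, no variance trend, a block for replicate number, fitting only the groups compared, array weights, and leaving out each array.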

Additional observations from a re-analysis of the deposited data

Results flagged for a closer look

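The difference between the change with the shRNA and that with dominant-negative Tcf4 passed limma's test for 11 synthetases. HARS1 had -1.25 ± 0.13 (adjusted p = 8.81e-06), with induced arrays below the uninduced ones in 3 of 3 for the shRNA and above in 3 of 3 for dominant-negative Tcf4, and CARS1 had -0.54 ± 0.15 (adjusted p = 0.0186). Differences in the opposite direction were found for the cytosolic FARSB, at 0.70 ± 0.14 (adjusted p = 0.00284), and VARS1, at 0.58 ± 0.14 (adjusted p = 0.0108). Among mitochondrial enzymes they were found for MARS2, at 0.74 ± 0.15 (adjusted p = 0.00308), IARS2, at 0.54 ± 0.11 (adjusted p = 0.00313), NARS2, at 0.64 ± 0.16 (adjusted p = 0.00934), and WARS2, at 0.62 ± 0.18 (adjusted p = 0.0221). The same holds for SARS2, at 0.58 ± 0.17 (adjusted p = 0.0272), EARS2, at 0.56 ± 0.17 (adjusted p = 0.0283), and PARS2, at 0.69 ± 0.21 (adjusted p = 0.0303). Line, construct and time of induction differ together in this test and cannot be told apart. Groups of 3 are too small for a test of single outlying arrays.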

How the results depend on the processing

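Calls of single members that held under all alternatives run numbered 5 of 13 with the shRNA, 5 of 16 with dominant-negative Tcf4, 4 of 11 for the difference and 9 of 17 between the uninduced lines. Among them EPRS1, GARS1, IARS1, LARS1 and VARS1 have only _s_at or _x_at probe sets and could not be tested without these. Median centring gave 1 member higher with the shRNA, 8 lower and 0 higher with dominant-negative Tcf4, and 1 lower and 4 higher for the difference. Averaging probe sets gave 1 higher with the shRNA, 0 higher with dominant-negative Tcf4 and 1 lower for the difference, and left 2943 genes called with dominant-negative Tcf4 and 1277 for the difference, with 11236 genes tested. It turned SARS1 with the shRNA to -0.62. The averages take in probe sets below the filter, as for CARS1, FARSB, TARS1 and WARS2, so calls lost this way can reflect dim and noisy signals. Leaving out _x_at and _s_at probe sets gave 1 higher with the shRNA and 2 higher between the uninduced lines, and no variance trend gave 1 lower for the difference. Fitting all probe sets, chosen after seeing the data, gave 7 lower with the shRNA, 8 lower with dominant-negative Tcf4, and 1 lower and 5 higher for the difference.

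Median changes moved beyond the spread of class means between arrays as follows. For mitochondrial enzymes they were -0.37 (quantile normalization), -0.22 (median centring) and -0.18 (averaged probe sets) between the uninduced lines, -0.09 (median centring) and 0.01 (stricter filter) with the shRNA, 0.19, 0.39 and 0.33 (median centring, stricter filter, averaged probe sets) for the difference, and -0.36 with dominant-negative Tcf4 (averaged probe sets, and no _x_at or _s_at). For cytosolic enzymes they were -0.29 (averaged probe sets) and -0.08 (no _x_at or _s_at) with the shRNA, -0.12 (no _x_at or _s_at) with dominant-negative Tcf4, and -0.03 (median centring) and -0.22 (array weights) between the uninduced lines. The causes were not tested.

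Leaving out single arrays gave 7 to 9 members lower and 2 to 3 higher with the shRNA, 9 to 16 lower and 0 to 1 higher with dominant-negative Tcf4, 1 to 2 lower and 6 to 9 higher for the difference, and 10 to 13 lower and 2 to 4 higher between the uninduced lines. Medians for mitochondrial enzymes were then -0.08 to -0.01 (shRNA), 0.19 to 0.36 (difference) and -0.39 to -0.18 (uninduced lines), and for cytosolic enzymes -0.02 to 0.11 (difference) and -0.23 to -0.07 (uninduced lines). With the replicate number as a block, a fit without support from the pairing check, 10 members were lower and 2 higher with the shRNA, 16 lower and 1 higher with dominant-negative Tcf4, and 2 lower and 8 higher for the difference. The number of arrays limits what can be called.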
